A study of Canis lupus familiaris with 8 samples.

Results

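The enzymes of the tricarboxylic acid (TCA) cycle were followed in dog heart through 14 probe sets, those that the platform annotation names with a single symbol among 9 enzyme genes: CS, IDH2, IDH3A, IDH3B, OGDH, SUCLG1, FH, MDH1 and MDH2. The 14 belong to 7 of the 9 genes and are part of 23913 probe sets on the array, while CS and MDH2 carried no probe set of that kind and were not analysed here. Each of 8 male dogs weighing 23 to 27 kg gave cardiac RNA for a single Affymetrix canine array. The 4 HHcy dogs had chronic hyperhomocysteinemia, that is, too much of the amino acid homocysteine in the blood, after drinking water with methionine for 2 weeks, and for the 4 control dogs the labels name no treatment. The series asks how this state alters gene expression and substrate metabolism in the heart, and its labels give no chamber, breed or age. Dogs are numbered as in the labels, control 1 to 4 and HHcy 5 to 8.

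The TCA cycle runs in the mitochondrial matrix and burns the acetyl group of acetyl-CoA, which the heart draws mainly from fatty acids and also from glucose and lactate. Citrate synthase (CS) forms citrate, isocitrate dehydrogenases and the 2-oxoglutarate dehydrogenase complex release carbon dioxide, and the later steps through succinyl-CoA synthetase, fumarase (FH) and malate dehydrogenase regenerate oxaloacetate. The NADH and reduced flavin made on the way feed the respiratory chain, and cardiac muscle, which works without pause, is rich in these enzymes.

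The arrays were not alike in tissue content or RNA quality. On HHcy 6 the 12 tested cardiomyocyte markers had a median log2 signal of -4.77 from the control mean, against -0.16 to 0.067 on HHcy 5, 7 and 8, and MYL3, a myosin light chain of ventricular muscle, reached only 27.5 units, against 6933 to 23836 on the other 7 arrays. The labelled cardiac tissue therefore showed its defining markers on 7 arrays, and the array labelled HHcy 6 had them at a small part of that level. The 4 tested smooth muscle markers on HHcy 6 had a median of 3.79 log2 units above the control mean. ACTA2, smooth muscle actin, had 28849 against 684 to 3329 on the other arrays, and MYH11, smooth muscle myosin, 20719 against 387 to 2078. DES, of the same list, went the other way, with 99.6 against 1648 to 4370. The low cardiomyocyte markers and the high ACTA2 and MYH11 go against the label of cardiac muscle for HHcy 6. Values with all 4 HHcy arrays are therefore given beside values without it. The log2 ratio of 3' to 5' signal, averaged over actin and GAPDH, a sign of RNA integrity that rises as RNA is degraded or copied incompletely, was -0.43 on control 2 and 1.09 to 1.51 on the other controls. It was 1.29 on HHcy 8 and 1.89 on HHcy 7, and stood apart at 4.02 on HHcy 5 and 6.31 on HHcy 6. Actin and GAPDH ordered HHcy 5 and HHcy 6 differently. The ratio before the logarithm was 15.3 and 600 for actin, but 17.2 and 10.5 for GAPDH. The higher average on HHcy 6 thus came from actin alone. Because whole tissue was measured, fewer muscle cells and less RNA of a gene per cell cannot be told apart.

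None of the TCA cycle probe sets passed the test between HHcy and control hearts. The test took in 13 of the 14, all but a dim one, and 0 of the 13 had a limma adjusted p under 0.05, beside 0.0979% of all 14301 tested probe sets (14, all higher in HHcy). Their direction was mostly downward: 12 of the 13 had a log2 fold change below 0, with a median of -0.57, against a median of 0.15 over all tested probe sets. That overall median was 0.011 with quantile normalization and -0.15 with median scaling, where all 13 lay below 0. An unadjusted p under 0.05 with a lower level in HHcy was found for 4 of the 13, beside 5.94% of all tested probe sets, and for 0 in the higher direction. These 4 were both IDH2 probe sets, 1 of 4 for IDH3A and 1 of 3 for SUCLG1. The downward direction as a whole rested on HHcy 6: without that array 6 of the 13 lay below 0 and 7 above it, and their median was 0.076, beside 0.11 over all probe sets.

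**Figure D1:**
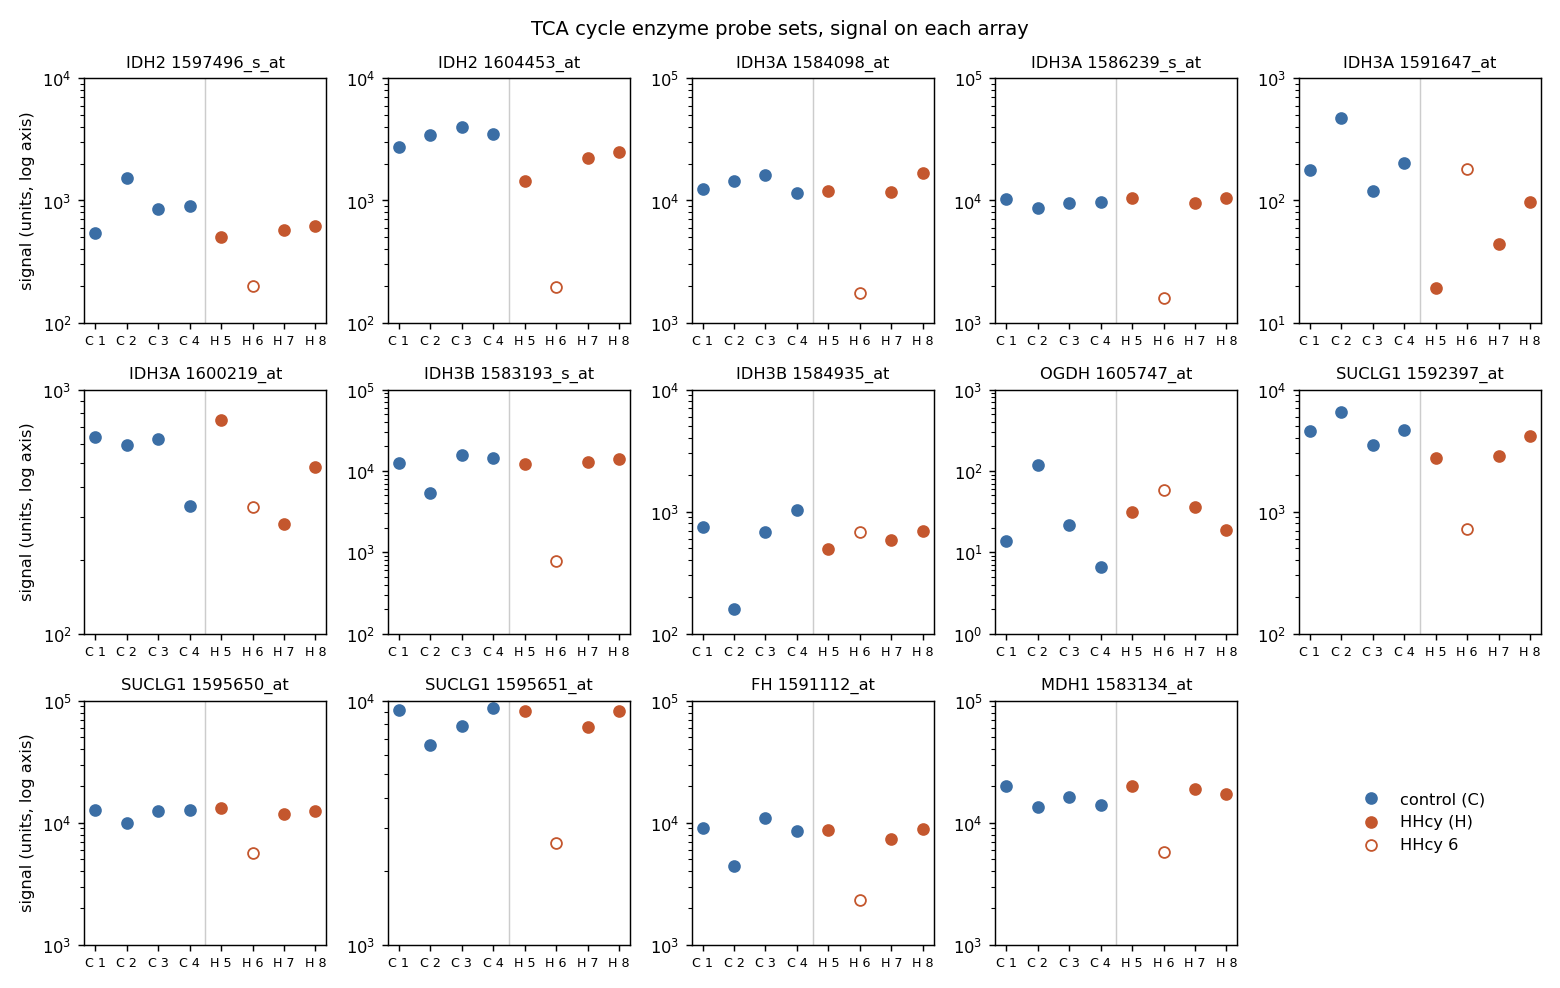
Signal of each of the 14 TCA cycle probe sets (log axis, units) on each array, with controls in blue, HHcy in orange and HHcy 6 as an open circle. HHcy 6 is the lowest array for 10 of the 13 tested probe sets, while the other HHcy arrays lie among the controls for most of them and below all controls for IDH2 1604453_at and IDH3A 1591647_at.

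IDH2, the mitochondrial isocitrate dehydrogenase that makes NADPH and so supplies reducing power to the antioxidant systems of the matrix, had the lowest log2 fold change of the enzymes with all arrays, while without HHcy 6 a dim IDH3A probe set was lower (-1.76 against -0.76). Its brightest probe set (1604453_at) had signals of 2753, 3469, 4009 and 3478 on control 1 to 4. On HHcy 5 to 8 it had 1437, 197, 2246 and 2485. Every HHcy array lay below every control array, the only TCA cycle probe set of which this held (1 of 13, beside 3.89% of all tested probe sets lower in HHcy without overlap). The log2 fold change was -1.56 ± 0.63 (SE, limma adjusted p 0.239), a level 2.94-fold lower over the 4 HHcy arrays, HHcy 6 included, with mean signals of 3427 ± 516 and 1591 ± 1032 (SD, n = 4 each). Without HHcy 6 the means were 3427 ± 516 (SD, n = 4) and 2056 ± 549 (SD, n = 3), a level 1.69-fold lower, with a log2 difference of -0.76 ± 0.24 (SE, adjusted p 0.209) and a 95% interval from -1.27 to -0.24. That interval does not reach 0, but the adjusted p over all probe sets did not pass.

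The other IDH2 probe set (1597496_s_at) was dimmer and also had a lower mean in HHcy. Its suffix marks probes that several transcripts can share. Its signals were 537, 1535, 849 and 907 on control 1 to 4 and 503, 201, 577 and 615 on HHcy 5 to 8, so that control 1 overlapped the HHcy arrays. The log2 fold change was -0.99 ± 0.40 (SE, adjusted p 0.237), and -0.65 ± 0.32 (SE, adjusted p 0.360) without HHcy 6. Relative to the mean log2 signal of the brightest probe sets of the other 5 tested genes, IDH2 was shifted by -1.35, -1.77, -0.62 and -0.65 on HHcy 5 to 8 from its mean place in controls. The same difference ran from -0.44 on control 1 to 0.48 on control 2, so the 4 HHcy dogs lay below the 4 controls on this scale. It uses the values of the brightest IDH2 probe set again, and so is no separate support. Its extremes fell at the ends of the 3'/5' scale: highest on control 2, lowest on HHcy 5 and HHcy 6. The part of RNA quality in it was not tested. IDH2 was singled out here after its values were seen, and no test was made of that difference.

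IDH3A and IDH3B encode the alpha and beta subunits of the NAD-dependent isocitrate dehydrogenase, the regulated enzyme that drives the cycle itself. IDH3A had 4 probe sets of very different brightness. The brightest (1584098_at) had signals of 12422, 14507, 16257 and 11484 on control 1 to 4, and of 11903, 1742, 11702 and 16768 on HHcy 5 to 8. The next (1586239_s_at) ran from 8631 to 10215 on the controls, and had 10475, 1588, 9596 and 10413 on HHcy 5 to 8. On both, HHcy 6 lay far below every other array, and the other HHcy dogs lay within or close to the control range.

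With all arrays the log2 fold change was -0.76 ± 0.57 (SE, adjusted p 0.485) on the brightest IDH3A probe set and -0.57 ± 0.52 (SE, adjusted p 0.567) on the next. Without HHcy 6 the values were -0.030, with a 95% interval from -0.45 to 0.39, and 0.098, with one from -0.25 to 0.45. Both dim IDH3A probe sets did not follow this pattern. On the dimmest (1591647_at) the controls had 177, 476, 119 and 204 and HHcy 5 to 8 had 19.3, 180, 44.2 and 96.3, so that HHcy 6 lay among the controls and the other HHcy arrays below them. Its log2 fold change was -1.38 ± 0.53 (SE, adjusted p 0.221), and -1.76 ± 0.49 (SE, adjusted p 0.185) without HHcy 6. The remaining one (1600219_at) ran from 334 to 638 on the controls and from 280 to 749 in HHcy, with a log2 difference of -0.29 ± 0.34 (SE, adjusted p 0.662), or -0.17 without HHcy 6. The probe sets of IDH3A thus disagreed, and their places on the transcript are not given in the sources used here.

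IDH3B had a bright and a dim probe set, which differed mainly on HHcy 6. The bright one (1583193_s_at) had 12367, 5315, 15633 and 14320 on control 1 to 4 and 12250, 787, 12744 and 13881 on HHcy 5 to 8, so that control 2 and HHcy 6 were low. Its log2 fold change was -0.77 ± 0.79 (SE, adjusted p 0.613), and 0.23 ± 0.31 (SE, adjusted p 0.742) without HHcy 6. The dim one (1584935_at) had 755, 159, 678 and 1031 on the controls and 492, 685, 582 and 692 in HHcy. Here control 2 alone was low, and the log2 difference of 0.15 ± 0.46 (SE, adjusted p 0.883), the only positive one of the 13, turned to -0.16 with median scaling and to -0.40 without control 2, and was 0.091 without HHcy 6.

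OGDH encodes the first, decarboxylating component of the 2-oxoglutarate dehydrogenase complex. Its only probe set (1605747_at) was too dim for the test: it had signals of 13.9, 119, 21.8 and 6.66 on control 1 to 4 and 30.9, 57.7, 36.2 and 19.0 on HHcy 5 to 8. Most of these lie near or under 24, the value added to every signal before the logarithm, and no fold is given. The signals say little about OGDH in the heart, since a single dim probe set can miss an abundant transcript.

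SUCLG1 encodes the alpha subunit that the ATP-forming and GTP-forming succinyl-CoA synthetases share, the only step of the cycle that makes a nucleoside triphosphate directly. Of its 3 probe sets, 1595650_at and 1595651_at were annotated to the same sequence record and followed each other closely. The first had 12768, 9993, 12505 and 12641 on control 1 to 4 and 13303, 5640, 11859 and 12574 on HHcy 5 to 8. The other ran from 6576 to 9370 on the controls and had 9074, 2615, 7784 and 9087 in HHcy. HHcy 6 was the single low array in HHcy on both, and HHcy 5, 7 and 8 lay within the control range or, for HHcy 5 on 1595650_at, just above it. Their log2 fold changes were -0.21 ± 0.29 and -0.35 ± 0.38 (SE, adjusted p 0.715 and 0.631). Without HHcy 6 they were 0.076 and 0.080, with 95% intervals from -0.29 to 0.44 and from -0.32 to 0.48.

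The other SUCLG1 probe set (1592397_at), annotated to another record, had 4557, 6606, 3546 and 4635 on control 1 to 4 and 2757, 723, 2867 and 4154 on HHcy 5 to 8. Of the HHcy arrays 3 lay below all controls, and HHcy 8 lay within their range. The log2 fold change was -1.08 ± 0.46 (SE, adjusted p 0.255), a level 2.12-fold lower in HHcy, and -0.56 ± 0.24 (SE, adjusted p 0.317) or 1.47-fold lower without HHcy 6. This difference is therefore not shared by the other probe sets of the gene.

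FH, fumarase, hydrates fumarate to malate. Its probe set (1591112_at) had 9071, 4432, 10854 and 8527 on control 1 to 4 and 8748, 2348, 7323 and 8880 on HHcy 5 to 8. Control 2 and HHcy 6 were the low arrays, and the other 6 lay between 7323 and 10854. The log2 fold change was -0.37 ± 0.43 (SE, adjusted p 0.662), and 0.085 without HHcy 6, with a 95% interval from -0.50 to 0.67.

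MDH1 is the cytosolic malate dehydrogenase, which works in the malate-aspartate shuttle that carries reducing equivalents from glycolysis into the mitochondrion. Its probe set (1583134_at) had 19838, 13478, 16366 and 14055 on control 1 to 4 and 19860, 5799, 18751 and 17219 on HHcy 5 to 8. HHcy 6 was again far below the rest, and HHcy 5, 7 and 8 lay in the upper part of the control range or, for HHcy 5, just above it. The log2 fold change was -0.18 ± 0.37 (SE, adjusted p 0.815). It was 0.24 ± 0.18 without HHcy 6 (SE, adjusted p 0.533), with a 95% interval from -0.15 to 0.63, and 0.11 with array weights, which count arrays that fit the model poorly for less.

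**Figure D2:**
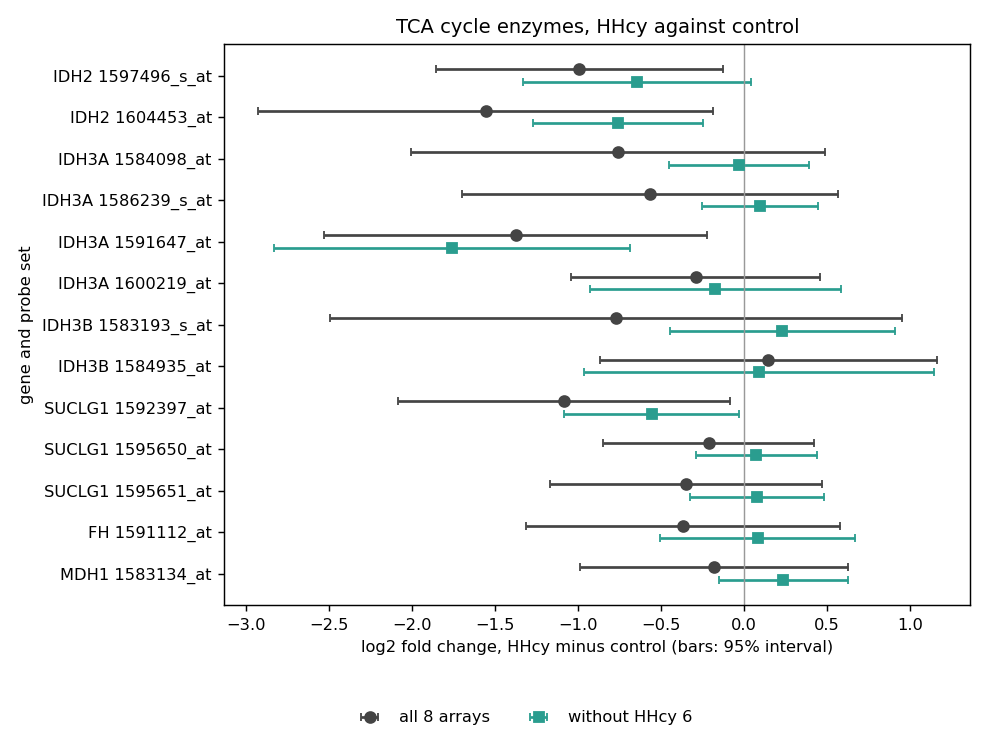
Log2 fold change, HHcy minus control, of the 13 tested TCA cycle probe sets, with bars for the 95% interval, from all 8 arrays (dark circles) and without HHcy 6 (green squares). Without HHcy 6 the intervals narrow for most bright probe sets and centre near 0, while IDH2 1604453_at, IDH3A 1591647_at and SUCLG1 1592397_at keep intervals below 0.

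HHcy 6 had the lowest signal of all 8 arrays for 10 of the 13 tested probe sets, and for the same number it lay more than 1 log2 unit below the control mean, which 13.6% of all tested probe sets did. The size of this difference varied across the enzymes and between probe sets of 1 gene. The control median was 17.7-fold above HHcy 6 for the brightest IDH2 probe set but 4.37-fold for the other, and 17.0-fold for the bright IDH3B one. It was 7.73-fold above for the brightest IDH3A probe set, 6.35-fold for SUCLG1 1592397_at and 3.75-fold for FH. For MDH1 it was 2.62-fold above and for SUCLG1 1595650_at 2.23-fold. Even the next lowest array was from 1.77-fold (SUCLG1 1595650_at) to 7.31-fold (IDH2 1604453_at) above HHcy 6 among these 10. The 3 exceptions were both dim IDH3A probe sets and the dim IDH3B one. On the same array the cardiomyocyte markers lay lower than the enzymes, with medians of -4.77 and -2.33 from the control mean, with each gene read from its brightest probe set. The part of tissue content or of RNA quality in the low values on HHcy 6 was not tested.

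Without HHcy 6, limma called 18 of 14301 probe sets (0.126%, 17 higher and 1 lower) and none of the 13 for the cycle. An unadjusted p under 0.05 with a lower level remained for 3 of the 13, beside 6.24% of all probe sets: IDH2 1604453_at, IDH3A 1591647_at and SUCLG1 1592397_at. Without both HHcy 5 and HHcy 6, their log2 fold changes were -0.52, -1.40 and -0.45, with adjusted p of 0.603, 0.539 and 0.667. The fit with that 3'/5' ratio as a covariate took in all arrays, HHcy 5 and HHcy 6 included. For these 3 probe sets it gave -0.095, -1.44 and -0.011, with adjusted p of 0.985, 0.914 and 0.998. HHcy 6 had the highest ratio and also the low cardiomyocyte markers, so RNA quality and tissue content are mixed in that fit. The ratio was not tried as a covariate without HHcy 6.

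The probe sets differed in how they stood on the arrays at the ends of the 3'/5' scale. Over the 7 arrays without HHcy 6, control 2, with the lowest ratio, was the lowest array for 7 of the 13 tested probe sets: 1586239_s_at of IDH3A, both of IDH3B, 1595650_at and 1595651_at of SUCLG1, and those of FH and MDH1. HHcy 5, with the highest ratio of the 7, was lowest for 4: both of IDH2, 1591647_at of IDH3A and 1592397_at of SUCLG1. For 3 of these 4, all but the brightest IDH2 probe set, control 2 was the highest of the 7 arrays. The probe sets with an unadjusted p under 0.05 in the comparison of the groups were thus the same 4 that were lowest on HHcy 5. The part of RNA quality in these differences was not tested, beyond the values with the ratio as a covariate, whose fit included HHcy 6. How many of all tested probe sets were lowest on control 2 or HHcy 5 is not given here. Of all tested probe sets, 5.21% lay more than 1 log2 unit below the control mean on control 2 and 7.12% on HHcy 5. The share was 2.38% to 3.32% on the other controls, 6.63% on HHcy 7 and 4.24% on HHcy 8.

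**Figure D3:**
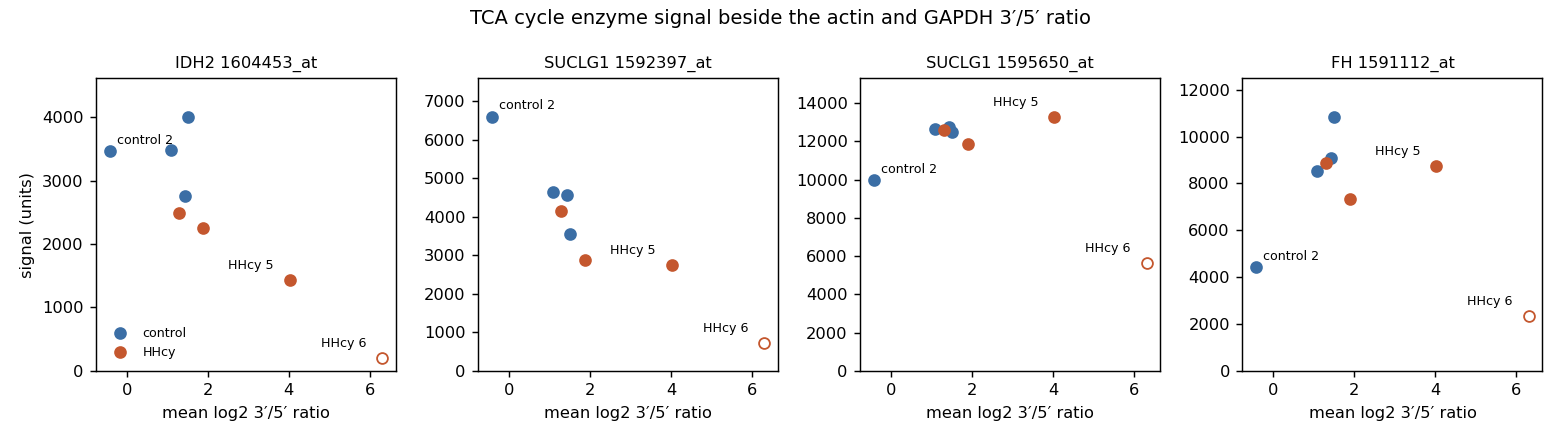
Signal (units, from 0) of 4 TCA cycle probe sets against the 3'/5' ratio (log2, mean over actin and GAPDH), 1 point per array, with controls in blue, HHcy in orange and HHcy 6 open. IDH2 1604453_at and SUCLG1 1592397_at are lower on the arrays of high ratio, HHcy 5 and HHcy 6, but not there alone. IDH2 1604453_at is below all controls on HHcy 7 and HHcy 8 too, and SUCLG1 1592397_at on HHcy 7. SUCLG1 1595650_at and FH 1591112_at are level on HHcy 5 and lower on control 2 and HHcy 6.

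How the enzymes varied together changed when HHcy 6 was left out. Over the 67 pairs of tested probe sets from different genes, the median Pearson correlation of log2 signals was 0.71 over 8 arrays, with 55 of the pairs above 0. Over the 7 arrays without HHcy 6 the median was -0.016, with 32 pairs above 0 and a range from -0.93 to 0.97. Some pairs stayed close over those 7 arrays, such as FH with IDH3B 1583193_s_at (0.95) and with SUCLG1 1595650_at (0.91), while others were opposed, such as IDH3B 1583193_s_at with IDH2 1597496_s_at (-0.68). The 3 pairs were picked as examples after their values were seen. Over the 11 pairs within a gene the medians were 0.46 and 0.17. Within genes, the pair of SUCLG1 probe sets from 1 sequence record had correlations of 0.99 over 8 arrays and 0.90 over 7, and the pair of IDH2 0.88 and 0.71. Both bright IDH3A probe sets went from 0.97 to -0.12, and the pair of IDH3B went the other way, from 0.19 to 0.94. These correlations describe 8 or 7 arrays that share the same differences in tissue and RNA quality.

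The genes whose pattern over the 8 arrays was most like the mean of the TCA cycle enzymes were ENO3, ACTN2, DLD, UQCR11 and PSME3. They had Pearson correlations of 0.996 to 0.989 with that mean, out of 5009 other genes. ENO3 is the muscle enolase of glycolysis, ACTN2 the alpha-actinin of the sarcomeric Z-disc, DLD the dehydrogenase component shared by the 2-oxoglutarate and pyruvate dehydrogenase complexes, and UQCR11 a subunit of respiratory complex III. Each was lowest on HHcy 6, where ACTN2 had 513 against 9711 to 20378 on the other arrays. Over the 7 arrays without HHcy 6 the nearest 5 were CDK16, TCTN2, ZZZ3, RINT1 and STARD6, with correlations of 0.973 to 0.944, and none of the first 5 was among them.

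The other enzymes of the cycle gave the same picture. Of 10 listed genes, 8 were tested and 0 passed, all 8 having a log2 fold change below 0 for the brightest probe set, with a median of -0.48. On HHcy 6 their median was -2.02 from the control mean, while HHcy 5, 7 and 8 ran from -0.16 to 0.11 and the controls from -0.056 to 0.11, and without that array 5 of the 8 lay below 0 with a median of -0.053. The lowest p belonged to SDHD, a membrane anchor of succinate dehydrogenase, and to DLST, the succinyl-transferring component of the 2-oxoglutarate dehydrogenase complex. SDHD had 10599, 11421, 9565 and 9659 on control 1 to 4 and 8605, 2244, 8605 and 8194 on HHcy 5 to 8. Its groups did not overlap, beside 3.89% of all tested probe sets lower in HHcy without overlap. The log2 difference was -0.76 ± 0.40 (SE, adjusted p 0.334), or -0.28 without HHcy 6. Another SDHD probe set (1595510_s_at) did overlap, with 10147 on HHcy 5 and 9562 to 11301 on the controls. It had -0.79 ± 0.47 (SE, adjusted p 0.388), or -0.20 without HHcy 6. DLST ran from 90.3 to 188 on the controls and from 40.9 to 130 in HHcy, and had -0.69 ± 0.41 (SE, adjusted p 0.387), or -0.94 without HHcy 6.

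Of 18 listed genes for cytosolic counterparts, the malate-aspartate shuttle and reactions that feed or drain the cycle, 7 were tested and 0 passed, 5 lower and 2 higher with a median of -0.32, or -0.019 without HHcy 6. NNT, the inner-membrane transhydrogenase that like IDH2 makes mitochondrial NADPH, had 3350, 3341, 2794 and 3847 on control 1 to 4 and 2069, 477, 2431 and 1824 on HHcy 5 to 8. Its groups did not overlap, beside 3.89% of all tested probe sets lower in HHcy without overlap. The log2 fold change was -1.18 ± 0.43 (SE, adjusted p 0.212), or -0.66 ± 0.20 (SE, adjusted p 0.207) without HHcy 6. Other NNT probe sets had -1.83 and 0.20, or -1.63 and 0.53 without it. GOT1, the cytosolic aspartate aminotransferase of the shuttle, had -1.09 ± 0.73 (SE, adjusted p 0.439), or -0.11 without HHcy 6, with 484 on HHcy 6 against 7197 to 8935 on the other arrays.

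Of 11 listed transcriptional regulators of mitochondrial genes, 5 were tested and 0 passed, 2 lower and 3 higher, with a median of 0.31. That median was 0.0018 with median scaling, again with 2 of 5 lower. With a pseudocount of 6 it was -0.0047, but over only 4 tested genes, 2 of them lower. The list thus had no clear direction. GABPA, a subunit of the nuclear respiratory factor NRF-2, ran from 269 to 299 on the controls and from 337 to 418 in HHcy. Its groups did not overlap, beside 1071 of all 14301 tested probe sets higher in HHcy without overlap. The log2 difference was 0.38 ± 0.23 (SE, adjusted p 0.4004). PPARGC1B, a coactivator of mitochondrial genes, had 1.06 ± 0.73 (SE, adjusted p 0.447), with signals from 4.82 to 247 that spread widely within each group.

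None of the tested marker genes of other cell types passed, and the lists did not behave alike. All 9 tested macrophage and neutrophil markers were higher in HHcy, with medians of 0.79 to 1.501 above the control mean on the 4 HHcy arrays and -0.23 to 0.18 on the controls. With median scaling 2 of the 9 were lower (median log2 fold change 0.90), and without HHcy 5 and HHcy 6 it was 1 of the 9 (median 0.96). Their summed signal ran from 5568 to 7888 on the controls and from 10278 to 19527 in HHcy. Of 5 tested fibroblast markers 4 were higher, with a summed signal of 12678 to 19648 on the controls and 22409 to 59641 in HHcy. Of 4 tested smooth muscle markers 3 were higher, and their summed signal of 5984 to 9806 on the controls and 6582 to 9828 on HHcy 5, 7 and 8 compares with 60360 on HHcy 6. The 12 cardiomyocyte markers were all lower with all arrays, with a summed signal of 20298 on HHcy 6, and 6 of the 12 were lower without it, when their sum was 265170 to 301050 against 242830 to 381760 on the controls. Of the endothelial list 3 genes were tested (1 lower, median 0.20, or -0.10 with median scaling) and of the adipocyte list 2 (both higher, median 0.26). Without HHcy 6 both adipocyte genes were lower, with a median of -0.29, and with median scaling the median was -0.041. Red cell markers were not analysed here. The part of cell content in the values of the enzymes was not tested.

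**Figure D4:**
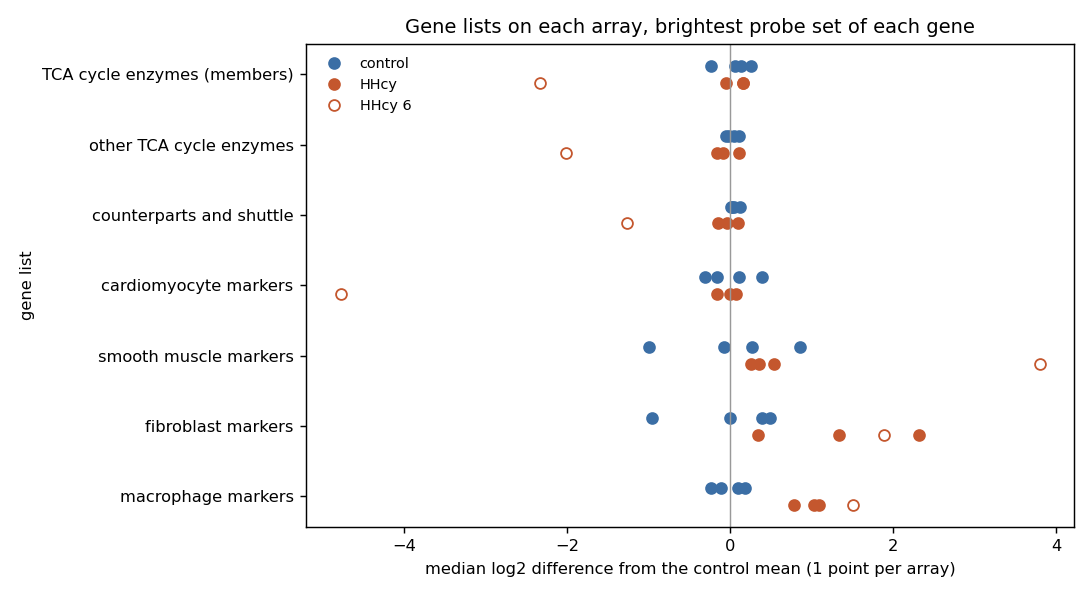
Median log2 difference from the control mean of each gene list, 1 point per array, with the brightest probe set of each gene, controls in blue, HHcy in orange and HHcy 6 open. The TCA cycle enzymes, the other enzymes of the cycle and the cardiomyocyte markers are low on HHcy 6 alone (-2.33, -2.02 and -4.77), and the macrophage markers are above the controls on all 4 HHcy arrays.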

How the data were processed

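The authors deposited 1 linear intensity per probe set and array, computed with MAS5, per the submitters' processing notes, whose version and settings are not given in the sources used here. All arrays had the same mean, 500.08 to 500.10 units with 2% left out at each end, so they were not rescaled. Samples were grouped by title. All 14 member probe sets matched the RefSeq gene table (assembly UU_Cfam_GSD_1.0) by gene identifier. No coordinates or sequences were used.

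Analysis used log2(value + 24), 24 being the 20th percentile, so folds of dim genes are understated. Control probe sets (77) and the dimmest 40% were left out. HHcy was compared with control in limma 3.58.1 under R 4.3.3 (lmFit, eBayes with trend), with Benjamini-Hochberg adjustment over all tested probe sets, threshold 0.05. The number of arrays, 4 per group, limits precision. Named were all members, the list genes of lowest p, and the 5 genes of most similar pattern. Related genes are given by their brightest probe set. The members and lists were chosen with earlier results of these data known. The fit was tested on simulated data. Alternatives were other scalings, pseudocounts of 6 and 96, other filters and variance models, 1 value per gene, arrays left out and the 3'/5' ratio as a covariate.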

Additional observations from a re-analysis of the deposited data

Results flagged for a closer look

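Within each group of 4 arrays, the gap between an extreme array and its neighbour was compared with the group's range of log2 signals, for 14 probe sets in 2 groups. Of these 28, 9 passed the 95% critical value of Dixon's test, where chance gives about 1 in 20 for independent groups. The 28 share the same arrays and so are not independent. The share of all tested probe sets that pass this value is not given here, so the count is no trait of these enzymes. HHcy 6 was the low extreme in 7 of the 9: the gap was 0.841 and 0.953 of the range for the IDH3A probe sets 1584098_at and 1586239_s_at, 0.956 for IDH3B 1583193_s_at, 0.866 and 0.875 for SUCLG1 1595650_at and 1595651_at, 0.855 for FH and 0.884 for MDH1. The same array had 27.5 units of MYL3. Among controls, control 4 was low for IDH3A 1600219_at (0.882) and control 2 for SUCLG1 1595650_at (0.915).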

How the results depend on the processing

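The count of TCA cycle probe sets that passed was 0 in the comparison and under all 22 alternatives. Over all probe sets the count of 14 was 7 with quantile normalization, 9 with the dimmest 60% left out, 76 with array weights, 8 with the brightest probe set per gene, 5 without HHcy 5 and HHcy 6, 5 with the 3'/5' ratio added as covariate, and 3 to 31 with 1 array left out. The median log2 fold change of the TCA cycle probe sets (-0.57) was -0.87 with median scaling, -0.20 with array weights, -0.80 to 0.076 with 1 array left out (highest without HHcy 6), 0.043 without HHcy 5 and HHcy 6, and 0.14 with the ratio as a covariate. Of 271 values of single probe sets under the alternatives, 246 kept their direction and 25 reversed, none passing. IDH3B 1584935_at turned to -0.16 with median scaling, -0.24 with array weights and -0.24 with the ratio as a covariate, and ran from -0.40 to 0.44 with 1 array left out. MDH1 turned to 0.11 with array weights.

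Without HHcy 5 and HHcy 6, the reversed values were 0.049 and 0.076 for IDH3A 1584098_at and 1586239_s_at, 0.27 for IDH3B 1583193_s_at, 0.035 and 0.043 for SUCLG1 1595650_at and 1595651_at, 0.046 for FH and 0.19 for MDH1. With the ratio as a covariate over all arrays they were, in the same order, 0.50, 0.46, 0.62, 0.17, 0.26, 0.14 and 0.39. With 1 array left out, IDH3A 1586239_s_at ran from -0.80 to 0.098, IDH3B 1583193_s_at from -1.13 to 0.23, SUCLG1 1595650_at from -0.34 to 0.076, SUCLG1 1595651_at from -0.52 to 0.080, FH from -0.64 to 0.085 and MDH1 from -0.35 to 0.24, each highest without HHcy 6. The cause was not tested.

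The median of a list moved by more than the spread between arrays in 12 of 180 values. This measure is wide, and the other values need not be stable. The cardiomyocyte median of -1.22 was -0.015 without HHcy 6 and did not count as moved. Neither did that of the other cycle enzymes, -0.48, which was 0.11 without HHcy 5 and HHcy 6. The count of called list genes moved in 3 of 180: 1 fibroblast gene with array weights, 1 without HHcy 8, and 1 macrophage gene with array weights. No paired analysis was possible because the labels number controls 1 to 4 and HHcy dogs 5 to 8, so that no number is shared. Brightness limits OGDH, whose only probe set lay under the filter.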

Other observations

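Further probe sets of enzymes outside the 9 genes, picked after their values were seen, had log2 fold changes below 0, and none passed. SDHC anchors succinate dehydrogenase in the membrane. A dimmer SDHC probe set (1583432_s_at) had 1982, 2531, 1549 and 1927 on control 1 to 4 and 1034, 497, 1497 and 1505 on HHcy 5 to 8. Its groups did not overlap, beside 3.89% of all tested probe sets lower in HHcy without overlap. Its log2 fold change was -0.90 ± 0.35 (SE, limma adjusted p 0.223), while the brightest SDHC probe set had -0.37. Without HHcy 6 these were -0.56 (adjusted p 0.310) and 0.25. IDH3G, the gamma subunit beside IDH3A and IDH3B, had -1.25 ± 0.62 (SE, adjusted p 0.311) on 1583518_at and -0.34 on its brightest probe set, or -0.46 and 0.19 without HHcy 6. SUCLG2, the GTP-specific partner of SUCLG1, had -0.040 ± 0.24 (SE, adjusted p 0.943), and on HHcy 6 its signal of 1288 lay within the 1107 to 1845 of the controls, while all SUCLG1 probe sets had their lowest value on that array.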
